A study of Mus musculus with 12 samples.

Results

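The cytosolic ribosomal protein genes encode the protein parts of the ribosome that translates messenger RNA outside mitochondria. They were taken as the genes whose platform symbol is Rpl or Rps with a number, with or without a final a, x or y, together with the stalk genes Rplp0, Rplp1 and Rplp2 and with Rpsa. Of 12393 genes measured by a probe set of 1 symbol, 41 met this rule, 20 of the large subunit, 19 of the small subunit and 2 of the stalk, and for each the brightest probe set by its mean over the 12 arrays was used. Of the 41, 40 passed the filter on low values and were tested. Rpl12, whose log2 values lay between 2.75 and 4.23, did not pass.

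RNA of the striatum was hybridised to 12 Affymetrix arrays, 1 for each C57Bl/6 mouse. The 4 groups, of 3 mice each, were controls and TIF-IA D1RCre mutants at 9 weeks of age, and controls and mutants at 13 weeks. In the mutants the gene for TIF-IA, named Rrn3, is deleted by a Cre recombinase under the control of the D1 dopamine receptor gene, and so in neurons that use that receptor. Astrocytes, microglia, oligodendrocytes, vessels and neurons without the receptor keep the gene, and the genotype of the controls beyond that word, such as floxed alleles without Cre, is not given in the labels. The labels name medium spiny neurons, which project from the striatum to other brain regions, as the cell type, but the tissue given is striatum, and markers of astrocytes, microglia, oligodendrocytes and vessels were measured in every group. In such tissue RNA, fewer cells of a type and less RNA per cell cannot be told apart. The series text gives the molecular basis of survival and death as the subject of the study.

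A ribosome is made from ribosomal RNA, which RNA polymerase I and RNA polymerase III transcribe, and from ribosomal proteins, whose messenger RNAs are made by RNA polymerase II. TIF-IA is a factor that RNA polymerase I needs to start transcription, so its deletion acts on the ribosomal RNA and not directly on the genes described here. Ribosomal protein messenger RNAs are among the most abundant in a cell and begin with a run of pyrimidines, the 5′ terminal oligopyrimidine tract, through which the kinase complex mTORC1 and the protein LARP1 control their translation and stability. Ribosomal proteins that find no ribosomal RNA are mostly degraded, and Rpl5 and Rpl11 in particular can bind Mdm2, the ligase that limits p53. An array measures the messenger RNA and gives no value for the protein.

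The start regions of the 6 members that passed the test in at least 1 comparison are shown, with the sequence features named below marked where present. Each line gives 120 bases of the RefSeq table for GRCm38.p6, from 90 bases before the annotated start to 30 after it, in the direction of transcription. Capitals mark a pyrimidine run of at least 8 bases within 10 bases before to 50 after the start, and, on either strand, the ETS factor motif CTTCCG, the box of TATA promoters as TATAAA, and the box known by its letters CCAAT. The regions are chr9:120127676-120127795 (plus strand) for Rpsa, chr10:80292341-80292460 (plus strand) for Rps15, chr5:115559377-115559496 (plus strand) for Rplp0, chr9:120571427-120571546 (plus strand) for Rpl14, chr7:109519105-109519224 (plus strand) for Rpl27a and chr4:86857338-86857457 (minus strand) for Rps6.
Rpsa: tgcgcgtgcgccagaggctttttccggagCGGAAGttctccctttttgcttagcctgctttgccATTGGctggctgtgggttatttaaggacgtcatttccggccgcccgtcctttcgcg
Rps15: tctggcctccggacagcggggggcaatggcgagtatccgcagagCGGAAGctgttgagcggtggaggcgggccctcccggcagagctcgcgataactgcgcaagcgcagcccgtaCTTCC
Rplp0: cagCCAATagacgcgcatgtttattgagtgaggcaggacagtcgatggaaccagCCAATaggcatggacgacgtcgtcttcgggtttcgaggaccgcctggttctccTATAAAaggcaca
Rpl14: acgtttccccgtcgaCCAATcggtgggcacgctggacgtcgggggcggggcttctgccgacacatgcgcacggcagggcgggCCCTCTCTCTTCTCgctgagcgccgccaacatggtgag
Rpl27a: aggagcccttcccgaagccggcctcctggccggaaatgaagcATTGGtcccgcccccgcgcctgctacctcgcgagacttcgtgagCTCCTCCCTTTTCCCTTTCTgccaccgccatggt
Rps6: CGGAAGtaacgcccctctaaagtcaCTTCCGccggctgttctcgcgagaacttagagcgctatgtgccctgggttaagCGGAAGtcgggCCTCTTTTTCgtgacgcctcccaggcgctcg
In Rpl27a the run of 20 pyrimidines, ctcctcccttttccctttct, crosses the annotated start, as do the run of 14 in Rpl14 and that of 10 in Rps6. In Rps15 a run of 11 lies from base 26 to base 36 after the start and so goes on past the end of the line. In Rpsa and Rplp0 the longest run within 10 bases before to 50 after the start has 7 bases, under the 8 that are marked. Of the 36 members with an entry in the table, 28 (77.8%) held a run of at least 8 in that window, against 24.0% of 27018 genes. CTTCCG, the core that ETS factors such as GABP bind, was found in 72.2% of members and 18.8% of genes within 250 bases before to 50 after the start. TATAAA was found in 13.9% and 15.7%, and CCAAT in 30.6% and 41.1%. These are matches of letters to annotated starts, which can lie away from the start in use. Rplp0 is 1 of the 5 members with TATAAA.

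The arrays differed among themselves before any comparison of genotypes. Over all genes, control mouse 3 at 13 weeks lay farthest from its group (root mean square 0.54 log2, against 0.18 to 0.34 for the others), and its 18S RNA 3′ control probe set read 8.85, with 8.29 in control mouse 3 at 9 weeks and 4.32 to 5.89 elsewhere. From Xist and Eif2s3y, 1 mouse was female in each of the other 3 groups and all 3 mutants at 13 weeks were female, so that no male mutant was measured at 13 weeks. Rrn3 fell by 1.13 ± 0.18 (SE, n = 3 per group) at 9 weeks (limma, adjusted p = 0.00748) and differed by -0.35 at 13 weeks (adjusted p = 0.128), and whether its probe set lies in the deleted part is not known. At 13 weeks 11 of 12 markers of medium spiny neurons were lower in the mutants (median -1.85), while 9 of 11 astrocyte and 14 of 16 microglia markers were higher. At 9 weeks all 12 neuronal markers had a negative difference (median -0.43), of which 1 passed limma's test and 5 had an unadjusted p under 0.05. Of the microglia markers 13 of 16 had a positive difference at that age (median 0.32) and of the astrocyte markers 8 of 11 (median 0.22), and 0 of either list passed limma's test (1 of each at an unadjusted p under 0.05). Every difference below is on the log2 scale, mutant minus control unless said otherwise.

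Comparison at 9 weeks. The differences of the family at 9 weeks were small and mostly positive. Of the 40 members, 35 had a positive and 5 a negative difference, with a median of 0.21, where the median of all 8256 genes tested was -0.02. Rpsa and Rps15, both of the small subunit, were the 2 members that rose past the test (5%), against 2.02% of all genes higher. None fell by limma's test, against 2.98% of all genes lower. At an unadjusted p under 0.05, 7 members were higher and 1 lower, against 750 and 1017 of all 8256 genes. With array weights 9 members were higher and 1 lower, against 1181 and 1568 of all 8256 genes. In 16 members every mutant lay above every control (15% of all genes), and in 1, Rpl14, every mutant lay below (20.6% of all genes). The part of the neuronal and glial markers, whose medians at this age are given above, in the members' positive differences was not tested.

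Rpsa encodes a protein of the small subunit that is also known as a laminin receptor. At 9 weeks controls 1 to 3 read 12.59, 12.67 and 12.53 on the log2 scale and mutants 1 to 3 read 13.24, 13.38 and 13.63, so that the groups stand well apart. The difference was 0.82 ± 0.20 (SE, n = 3 per group, 1.77-fold, limma, adjusted p = 0.038). At 13 weeks the controls read 12.59, 13.21 and 13.33 and the mutants 12.87, 13.12 and 13.12. There the groups overlapped, with control mouse 1 at the level of the younger controls and the other controls near the mutants, and the difference was -0.01 (95% interval -0.44 to 0.42). The change of the difference between ages was -0.83 ± 0.28 and did not pass (adjusted p = 0.0593).

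Rps15 encodes a protein in the head of the small subunit. At 9 weeks the controls read 12.89, 12.98 and 13.04, and the mutants read 13.49, 13.58 and 13.66. At 13 weeks the order was turned, the controls reading 13.41, 13.84 and 13.93 and the mutants 13.35, 13.32 and 13.32. The groups did not overlap at either age. Rps15 rose by 0.61 ± 0.15 at 9 weeks (1.52-fold, limma, adjusted p = 0.045), and its difference of -0.40 ± 0.15 at 13 weeks did not pass (adjusted p = 0.0521). The change between ages, -1.0 ± 0.22, passed (adjusted p = 0.00754), and Rps15 was the 1 member of 40 to do so (2.5%), against 6.38% of all genes with a negative change. No member passed with a positive change (0 at an unadjusted p under 0.05), against 12.1% of all genes. A second Rps15 probe set differed by 0.08 at 9 weeks and changed by -0.34 between ages (adjusted p = 0.4), so the change passed on 1 of the 2 probe sets of the gene.

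Both calls at 9 weeks were near the threshold. Leaving out any 1 of the 6 arrays of this age ended the call for Rpsa (adjusted p = 0.0711 to 0.13) and for Rps15 (adjusted p = 0.0925 to 0.153), as did leaving out mutant mouse 1 or 2 at 13 weeks and, for Rps15, control mouse 2 at 13 weeks (adjusted p = 0.0545 to 0.0705). Without control mouse 3 at 13 weeks, 5 members were higher and 1, Rpl14, was lower, against 526 higher and 832 lower of all 8256 genes. Without mutant mouse 3 at 9 weeks, no member was higher and Rpl14 was lower, against 96 higher and 125 lower of all genes.

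**Figure D1:**
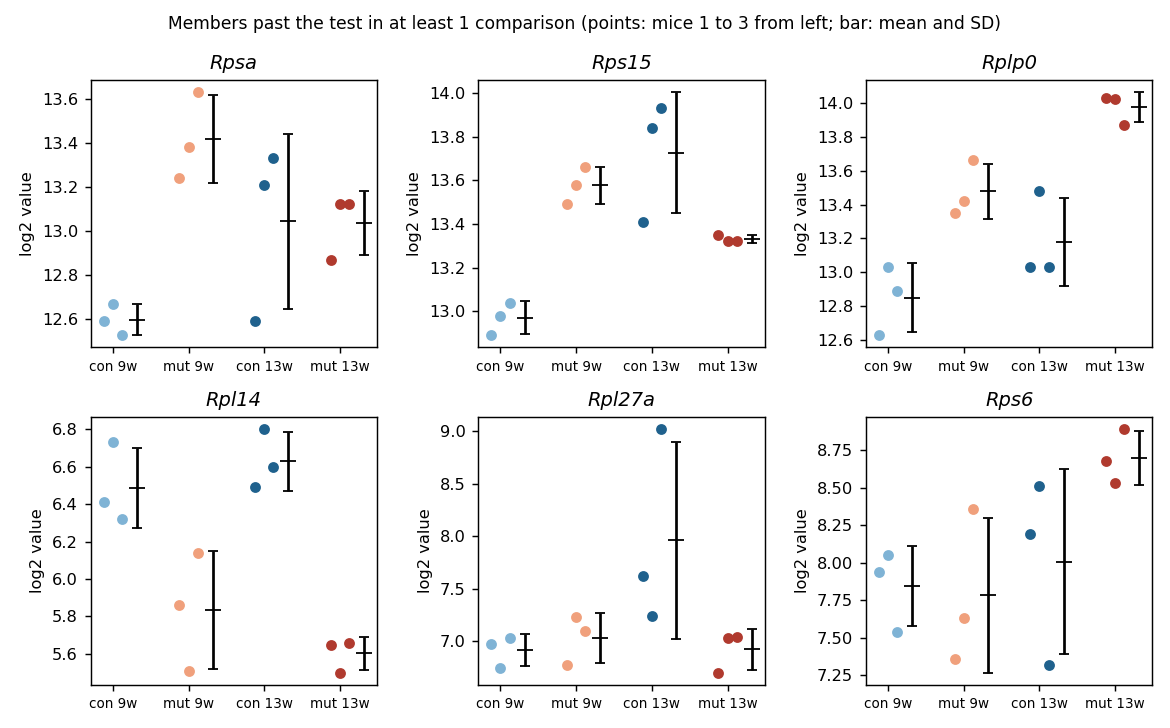
Log2 value of each array for the 6 members that passed the test in at least 1 comparison, in the 4 groups (con, control; mut, mutant; 9w and 13w, age in weeks); points are mice 1 to 3 from left to right and the bar beside them is the mean with its SD (n = 3). The vertical axes differ between genes and do not start at 0. Rplp0 stood above the controls and Rpl14 below them in all 3 mutants at each age, while Rps15 stood above them at 9 weeks and below them at 13 weeks.

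The subunits were alike in direction at 9 weeks. The 19 small subunit genes had a median of 0.30, with 18 positive, and the 19 large subunit genes a median of 0.14, with 15 positive. The difference between the subunits was not tested. Small subunit genes beside the 2 called ones included Rps3, which is also known for roles in DNA repair (0.44 ± 0.21), Rps24 (0.41), Rps18 (0.41), Rps7, a protein that can bind Mdm2 (0.40), and Rps19, the gene most often mutated in Diamond-Blackfan anaemia (0.34 ± 0.20). None of these 5 passed, with adjusted p from limma between 0.147 and 0.367. For Rps19 the controls read 12.36, 12.66 and 12.67 and the mutants 12.65, 12.85 and 13.21, so that its groups overlapped. The members fixed for naming that, on the probe set used, carried no genotype difference past the test at either age also included Rps14 (0.19 and 0.04 at 9 and 13 weeks), Rps27 (0.48 and 0.36), Rps4x (0.08 and 0.43), Rpl11 (0.21 and 0.11), Rpl22 (0.23 and 0.19) and Rplp2 (0.21 and 0.02). For Rps27 at 9 weeks the controls read 6.52, 6.58 and 6.25 and the mutants 6.18, 6.5 and 8.1, with mutant mouse 3 far above the others. With arrays left out the Rps27 difference ran from -0.11 to 0.85. A second Rpl22 probe set, of mean 8.96, differed by -0.11 at 9 weeks. In the limma fit of all probe sets it passed at 13 weeks (0.40, adjusted p = 0.0388) and for age in mutants (0.51, adjusted p = 0.0164).

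**Figure D2:**
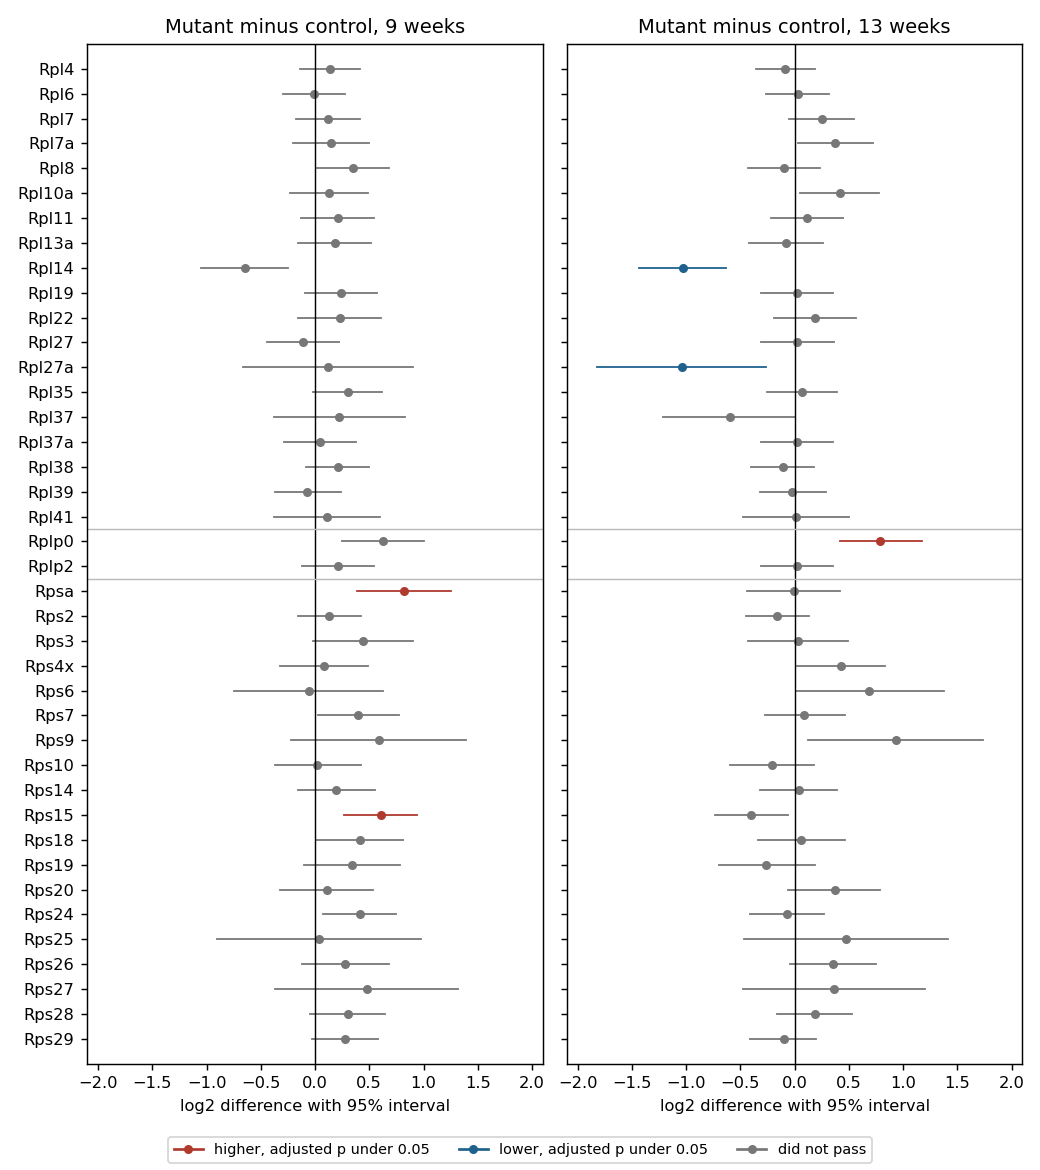
Difference of the log2 means, mutant minus control, for the 40 members tested at 9 weeks (left) and 13 weeks (right), with 95% intervals from limma; grey lines part the 60S, stalk and 40S genes. Colour marks an adjusted p under 0.05. At 9 weeks 35 of 40 points lie right of 0 and at 13 weeks 25 of 40, and Rpl14 and Rpl27a lie farthest to the left at 13 weeks.

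Comparison at 13 weeks. Of the 40 ribosomal protein genes, 3 passed (7.5%), where 45.3% of all genes did (23.4% higher, 21.9% lower). Rplp0 rose, and Rpl14 and Rpl27a fell. Both falls were on probe sets of low signal for this family (means of 6.14 and 7.21). Of the 33 members with a mean of at least 10, 0 fell by limma's test (1 lower at an unadjusted p under 0.05). Of the 7 tested with a lower mean, 2 fell, against 21.9% of all genes. The median difference of the members was 0.02, with 25 positive and 15 negative, and their median size without regard to sign was 0.14, against 0.53 over all genes. Among 254 other genes whose mean over the arrays was at least 12, the range in which 32 members lie, 36.6% passed and the median size was 0.33. The members were no less precisely measured, with a median SE of 0.16, against 0.17 for these 254 genes and 0.22 for all genes. In 32 of 40 members (80%) the 95% interval lay within 1 log2 of 0, which held for 71.7% of these 254 genes and 47.4% of all genes. A 2-fold change was thus outside the interval of most members at this number of arrays. In 7 members every mutant lay above every control (27.8% of all genes) and in 3 below (26.8% of all genes).

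Rplp0 encodes the protein to which the other stalk proteins bind and by which the ribosome recruits translation factors. At 9 weeks the controls read 12.63, 13.03 and 12.89 and the mutants 13.35, 13.42 and 13.66. The controls at 13 weeks read 13.03, 13.48 and 13.03 and the mutants 14.03, 14.02 and 13.87. All mutants lay above all controls of their age. The difference was 0.63 ± 0.17 at 9 weeks (1.54-fold, limma, adjusted p = 0.0593) and 0.79 ± 0.17 at 13 weeks (1.73-fold, adjusted p = 0.00271). The rise at 13 weeks passed in all 23 alternatives run for it, with differences of 0.72 to 0.94 as single arrays were left out. Rplp2, which encodes another stalk protein, differed by 0.02 (95% interval -0.31 to 0.35). The stalk gene Rplp1 was measured by probe sets that list other symbols as well.

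Rpl14 encodes a protein of the large subunit. At 9 weeks the controls read 6.41, 6.73 and 6.32 and the mutants 5.86, 5.51 and 6.14. The older controls read 6.49, 6.8 and 6.6 and the older mutants 5.65, 5.5 and 5.66. The mutants lay below the controls at both ages. The difference was -0.65 ± 0.18 at 9 weeks (limma, adjusted p = 0.0634), and Rpl14 fell by 1.03 ± 0.18 at 13 weeks (2.04-fold lower, adjusted p = 0.00078). This fall passed in all 23 alternatives. It rests on 1 probe set of mean 6.14, and all values of the arrays ran from 1.09 to 15.48.

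Rpl27a, another gene of the large subunit, had controls at 7.62, 7.24 and 9.02 and mutants at 6.7, 7.03 and 7.04 at 13 weeks. The groups did not overlap, but control mouse 3, the array that stood apart over all genes, was far above the other controls. Rpl27a fell by 1.04 ± 0.36 (2.05-fold lower, limma, adjusted p = 0.0329), by 0.51 without that array (adjusted p = 0.0429), and did not pass without mutant mouse 1, 2 or 3 (adjusted p = 0.106, 0.0658 and 0.0571). At 9 weeks its difference was 0.12. Rpl37 showed the same single high array, with controls at 9.76, 9.76 and 10.9 against mutants at 9.47, 9.76 and 9.38, and did not pass (-0.60, adjusted p = 0.0949).

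Several members came close to the threshold at 13 weeks. For Rps9 the controls read 12.39, 12.36 and 10.79 and the mutants 12.8, 13.1 and 12.43, a difference of 0.93 ± 0.37 (limma, adjusted p = 0.0587), with control mouse 3 the lowest array, and 0.40 without that array (adjusted p = 0.158). Another Rps9 probe set, of mean 12.08, differed by 0.30 ± 0.16 and did not pass in the limma fit of all probe sets (adjusted p = 0.157). Rpl10a differed by 0.42 ± 0.17 (adjusted p = 0.0597), the X-linked gene Rps4x by 0.43 ± 0.19 (adjusted p = 0.081) and Rps6, whose protein is the substrate of the S6 kinases, by 0.69 ± 0.31 (adjusted p = 0.0919). Without control mouse 3 these differences were 0.29, 0.21 and 0.35 (adjusted p = 0.138, 0.219 and 0.312). Leaving out control mouse 2 at 13 weeks gave 7 members higher in place of 1, among them these 4, against 1950 higher of all 8256 genes. Leaving out control mouse 1 gave 4 lower in place of 2, against 1822 lower of all genes. Without mutant mouse 3 at 9 weeks, control mouse 1 at 13 weeks or mutant mouse 3 at 13 weeks 2 members were higher (1821 to 2002 of all genes). Without mutant mouse 1, 2 or 3 at 13 weeks 1 was lower (1362 to 1690 of all genes). With a term for sex 8 of 40 members were higher, and 2028 of all 8256 genes. Control mouse 3, the array that stood apart over all genes, was the only female control at 13 weeks. The term for sex was thus estimated in part from that array. When each array was centred on its median, 4 members were lower, against 2386 of all 8256 genes. The median of the members was then -0.14, and the median of all genes was -0.16. That centring moved the share of higher among all called genes from 51.6% to 39.5%.

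**Figure D3:**
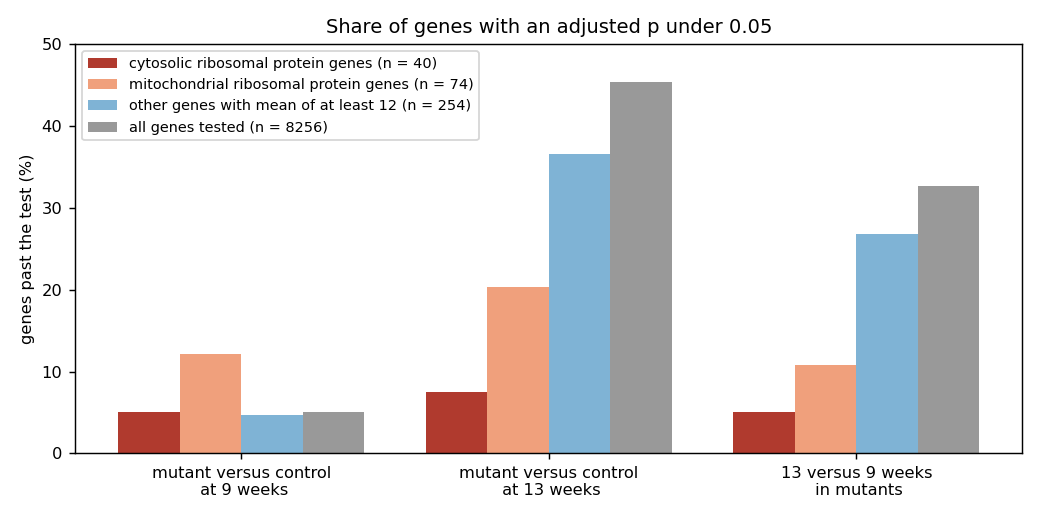
Percentage of genes with a limma adjusted p under 0.05 in 3 comparisons, for the 40 cytosolic ribosomal protein genes, the 74 mitochondrial ribosomal protein genes, 254 other genes with a mean of at least 12, and all 8256 genes tested. At 13 weeks the bars are 7.5%, 20.3%, 36.6% and 45.3%, and at 9 weeks the members and all genes are both at 5%.

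Change with age. In the controls 33 of 40 members had a positive difference from 9 to 13 weeks, with a median of 0.17, where all genes had a median of -0.08. None passed limma's test, and 0.145% of all genes did (0.0848% higher, 0.0606% lower). At an unadjusted p under 0.05, 9 members were higher and 0 lower, against 406 and 1025 of all 8256 genes. With array weights 4 members were higher, against 156 higher and 442 lower of all genes. In 10 members every older control lay above every younger one (6.67% of all genes), among them Rps15 (0.76 ± 0.15, adjusted p = 0.0913), Rps19 (0.54) and Rpl8 (0.53). Controls at 9 weeks are the base of this comparison and of the genotype comparison at 9 weeks, so the 2 share those 3 arrays.

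In the mutants 2 members rose with age, Rplp0 and Rps6 (5%), against 16.1% of all genes higher. None fell, against 16.6% of all genes lower. At an unadjusted p under 0.05, 2 members were higher and 0 lower, against 1606 and 1922 of all 8256 genes. With array weights more members were higher than without them (the count is in the last section), against 2182 higher of all genes. In that fit 2 members were lower, against 2901 of all genes. The members' median was -0.01 and that of all genes -0.10. Rplp0 rose by 0.50 ± 0.17 (1.41-fold, limma, adjusted p = 0.0438). Rps6 read 7.36, 7.63 and 8.36 in the mutants at 9 weeks and 8.68, 8.53 and 8.89 at 13 weeks, and so did not overlap between ages. Rps6, on a probe set of mean 8.08, rose by 0.92 ± 0.31 (1.89-fold, adjusted p = 0.0427). The call for Rplp0 ended without control mouse 2 or 3 or mutant mouse 1 or 2 at 9 weeks or any mutant at 13 weeks (adjusted p = 0.0506 to 0.131). That for Rps6 ended without any control or without mutant mouse 1 or 2 at 9 weeks, or without any mutant at 13 weeks (adjusted p = 0.0505 to 0.153).

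**Figure D4:**
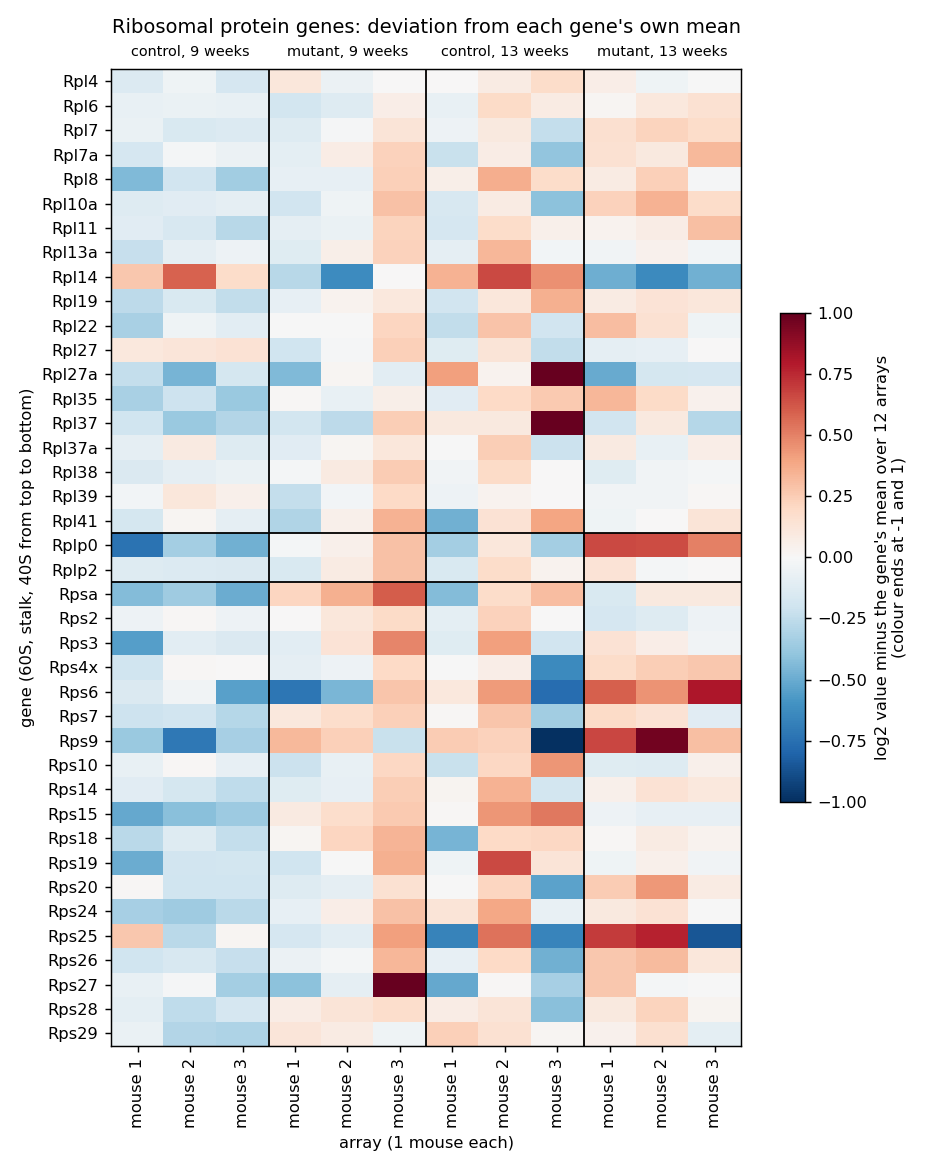
Log2 value of each of the 40 members on each of the 12 arrays, minus the gene's mean over the 12 arrays, with red above and blue below it; the colour scale ends at -1 and 1. Control mice at 9 weeks are mostly blue, and mutant mouse 3 at 9 weeks and control mouse 2 at 13 weeks are nearly all red.

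The number of members above their own mean over the 12 arrays differed between arrays of 1 group. In control mice 1 to 3 at 9 weeks 4, 8 and 5 of the 40 members lay above their own mean. In the mutants of that age the counts were 10, 19 and 37. At 13 weeks the controls had 13, 40 and 20 such members and the mutants 27, 28 and 23. Mutant mouse 3 at 9 weeks and control mouse 2 at 13 weeks were the highest, with mean deviations of 0.24 and 0.23, although they differ in genotype and age. The mean deviation of the endothelial markers was -0.91 on both these arrays, and their part in the members' shift was not tested. Mutant mouse 3 at 9 weeks also stood apart from mutants 1 and 2 of its group in the microglia markers (-0.18, against -0.99 and -0.65) and the neuronal markers (-0.16, against 0.31 and 0.31). Without mutant mouse 3 at 9 weeks and control mouse 3 at 13 weeks together the median of the members at 9 weeks was 0.10, and with single arrays left out it lay between 0.10 and 0.27. On control mouse 3 at 13 weeks the members scattered, with an SD of deviations of 0.53 against 0.16 to 0.27 on the other arrays.

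Probe sets matter in this family, whose many processed pseudogenes resemble the genes. The 41 members have 90 probe sets annotated to their symbol alone, and 102 others list a ribosomal protein symbol of the rule together with further symbols. Through these alone 27 more ribosomal protein genes are measured, among them Rpl5, Rpl3 and Rplp1, and they got no value of their own here. Rps27a got none either. Of the chosen probe sets, 14 end in _x_at, a mark for probes that may also match other transcripts. Fitted probe set by probe set, 1 of 75 tested sets of a single member symbol was higher and 0 lower at 9 weeks (1.66% and 1.99% of all probe sets), and 2 of 75 were higher and 2 lower at 13 weeks (20.9% and 21.4%). For the 90 tested sets with several symbols these counts were 2 and 0 at 9 weeks and 4 and 3 at 13 weeks. Of 17 members with several probe sets over the filter, Rpl22, Rpl27 and Rpl41 had sets of opposite sign at 9 weeks, and Rpl27, Rpl37a, Rpl41, Rps14 and Rps7 at 13 weeks.

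Of 7 ribosomal protein genes outside the rule that were on the array, 5 were tested, and Rpl39l and Rpl3l did not pass the filter on low values. Rps27l, the paralog of Rps27 that p53 is known to induce, had controls at 9.53, 9.71 and 9.58 and mutants at 9.96, 10.21 and 10.15 at 9 weeks. At 13 weeks the controls were at 9.44, 9.78 and 9.81 and the mutants at 11.38, 11.34 and 11.06, and the groups overlapped at neither age. Rps27l rose by 1.58 ± 0.16 at 13 weeks (limma, adjusted p = 8.99e-06), and the change from the 0.50 at 9 weeks passed (1.08 ± 0.22, adjusted p = 0.00533). Rps27 itself, on a probe set of mean 6.59, differed by 0.36 at 13 weeks (95% interval -0.48 to 1.2). Rpl7l1, a paralog of Rpl7, rose by 0.58 ± 0.18 at 13 weeks (adjusted p = 0.0201), a call that ended without control mouse 1 or mutant mouse 1 or 2 at 13 weeks (adjusted p up to 0.0818). For Rpl22l1, a paralog of Rpl22, the controls at 9 weeks read 12.95, 12.72 and 12.68 and the mutants 12.08, 12.13 and 12.49. These groups did not overlap, but the difference of -0.55 ± 0.17 did not pass (adjusted p = 0.0854). Without control mouse 3 at 13 weeks the differences at 9 weeks passed for Rpl22l1 (adjusted p = 0.0317) and for Rps27l (adjusted p = 0.0323). At 13 weeks Fau (-0.10), Rpl22l1 (-0.29) and Rps3a1 (0.05) did not pass. Microglia and astrocyte markers were higher on the same 3 arrays, and their part in the rise of Rps27l and Rpl7l1 was not tested.

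The 74 mitochondrial ribosomal protein genes serve the separate ribosome of mitochondria. At 9 weeks 9 of them were higher (12.2%, against 2.02% of all genes) and 0 lower by limma's test (1 lower at an unadjusted p under 0.05), with a median of 0.31. At 13 weeks 12 were higher (16.2%, against 23.4% of all genes) and 3 lower (4.05%, against 21.9%), with a median of 0.02. Their medians at 13 weeks and those of the cytosolic genes were thus the same to 2 decimals, and no test of the difference between the families was made.

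Other genes whose messenger RNAs carry the pyrimidine tract include elongation factors and noncoding hosts of small nucleolar RNAs. Of 25 tested, 3 rose at 9 weeks (12%, against 2.02% of all genes) and 0 fell, where 0 had an unadjusted p under 0.05 for a fall, with a median of 0.16. At 13 weeks 7 rose (28%, against 23.4% of all genes) and 2 fell (8%, against 21.9%), with a median of 0.28. The hosts Snhg1 and Snhg5, and Btf3, a part of the complex that binds nascent chains at the ribosome, were the 3 at 9 weeks (3.43, 1.63 and 0.68). The call for Btf3 ended without any 1 array of 9 weeks or without mutant mouse 1 or 2 at 13 weeks (adjusted p up to 0.133). At 13 weeks the 4 of smallest p were Vim, an intermediate filament gene of reactive astrocytes (4.79), Snhg1 (3.77), Snhg5 (2.23) and Ccng1, a p53 target (2.14). Small nucleolar RNA genes also lie inside members. The 12 tested members that hold one had medians of 0.15 and -0.01 at 9 and 13 weeks, and the 28 without had 0.23 and 0.06.

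Genes that control the making of ribosomal proteins were listed as well. Of 25 tested, none passed at 9 weeks by limma, where 5% of all genes did. At an unadjusted p under 0.05, 1 was higher and 1 lower, against 750 and 1017 of all 8256 genes. At 13 weeks 3 rose (12%, against 23.4% of all genes) and 9 fell (36%, against 21.9%). Eif4ebp1, which encodes the repressor of the cap-binding factor that mTORC1 inactivates, rose by 1.07. Deptor, an mTOR inhibitor, fell by 2.5, Tsc1, a part of the complex that restrains mTORC1, by 0.98, and Gabpa, a subunit of the factor that binds CTTCCG, rose by 1.88. For Gabpa the controls read 6.86, 6.58 and 4.73 and the mutants 8.11, 8.16 and 7.54, and without control mouse 3 the rise was 1.22 (adjusted p = 0.00473). Mtor itself fell by 0.53, a call that ended without mutant mouse 1 or 2 at 13 weeks (adjusted p up to 0.0753), and Larp1 differed by 0.09 (adjusted p = 0.605). Medium spiny neuron markers fell on the same arrays, and their part in these falls was not tested.

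Among 31 partners that assemble, carry or survey ribosomal proteins, 2 rose at 9 weeks (6.45%, against 2.02% of all genes) and 0 fell (1 lower at an unadjusted p under 0.05). At 13 weeks 10 rose (32.3%, against 23.4% of all genes) and 3 fell (9.68%, against 21.9%). Eif6, which keeps the large subunit from joining the small one, rose by 0.69 at 9 weeks (limma, adjusted p = 0.0252) and by 1.17 at 13 weeks (adjusted p = 5.49e-05). Tsr3, an enzyme that modifies the small subunit's ribosomal RNA, rose by 0.79 and 1.22. The calls at 9 weeks ended without any 1 array of that age for Eif6 (adjusted p up to 0.102) and, for Tsr3, without any of them but mutant mouse 3 (adjusted p up to 0.0837). At 13 weeks Gnl3, a nucleolar GTPase, rose by 1.02. Rrp7a, a factor in the processing of small subunit ribosomal RNA, fell by 0.99 ± 0.20 at 13 weeks (adjusted p = 0.00198) and differed by -0.53 at 9 weeks (adjusted p = 0.153). Without control mouse 3 at 13 weeks the differences of Gnl3 and Rrp7a at 9 weeks passed (adjusted p = 0.04 and 0.0189). Mdm2, to which free ribosomal proteins bind, rose by 0.74 at 13 weeks (adjusted p = 0.0171), a call that ended without mutant mouse 1 at that age (adjusted p = 0.0818), while Rpl11, measured on 1 probe set, differed by 0.11 (95% interval -0.22 to 0.45).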

How the data were processed

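Per the submitters' processing notes, the authors processed the array signals with GCRMA (version not given in the sources used here), and the deposited table holds log2 values, from 1.09 to 15.48, for 22690 probe sets on 12 arrays. Of these probe sets, 64 were controls, and GEO's platform annotation gave 1 symbol to 20380, several to 691 and none to 1555. Values were used as deposited, with the probe set of highest mean for each gene. Genes above their array's 40th percentile (3.51 to 3.81) in at least 3 arrays were kept, 8256 of 12393.

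All arrays were fitted together with limma 3.58.1 in R 4.3.3 (lmFit and eBayes, 4 group means, 8 residual degrees of freedom), and p-values were two-sided and adjusted over all genes by the Benjamini-Hochberg method in each of 5 comparisons. Calls are an adjusted p under 0.05. The procedure was tested on simulated data. The members and lists were chosen with earlier results of these data known. Named are members past the test, a fixed panel, members with probe sets of opposite sign, up to 4 genes of smallest p in each list, Rrn3 and ribosomal proteins outside the rule. Mtor, Larp1, Mdm2 and the members just short of the threshold or nearest to the called ones were named after their values were seen. The labels call the mice biological replicates. The number of arrays limits the precision. Replicate numbers were not used to pair the mice in the main fit. Correlations of same-numbered deviations from the group means ran from -0.07 to 0.18. Differently numbered mice were not correlated for reference, so these values cannot show whether the mice were paired. The alternatives were other normalizations, filters, probe sets, weights, priors, thresholds, a term for sex, a replicate block and arrays left out.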

Additional observations from a re-analysis of the deposited data

Results flagged for a closer look

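The genotype difference of Rps15 was 0.61 at 9 weeks and -0.40 at 13 weeks, and the change of -1.0 between ages passed limma's test (adjusted p = 0.00754). It drew attention because the effect of the same contrast differed between the 2 ages. From 9 to 13 weeks Rps15 differed by 0.76 in the controls (limma, adjusted p = 0.0913) and by -0.25 in the mutants (adjusted p = 0.245). Neither age difference passed, and that of the controls was the larger. All 3 mutants were above all 3 controls at 9 weeks and below them at 13 weeks. The change passed in 22 of 23 alternatives, with values from -1.16 to -0.86 when arrays were left out, and did not pass on the second probe set (-0.34).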

How the results depend on the processing

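The rise of Rplp0 and the fall of Rpl14 at 13 weeks passed in every alternative run for them, and no call changed its direction. Of the values recomputed, 298 kept their side or size and 79 moved. The counts below are members past the test, where the values reported were 2 higher and 0 lower at 9 weeks, 1 higher and 2 lower at 13 weeks, 0 higher and 1 lower for the change between ages, 0 for age in controls and 2 higher and 0 lower for age in mutants. Higher at 9 weeks were 1 with quantile normalization or the mean of probe sets, 0 with median centring, the second probe set, the replicate block or an adjusted p under 0.01, 9 with array weights and 4 with only the 2 groups compared. Lower at 9 weeks was 1 with array weights, with an adjusted p under 0.1 and without control mouse 3 at 13 weeks and mutant mouse 3 at 9 weeks together. Higher at 13 weeks were 3 with quantile normalization, array weights or a trended robust prior, 2 with no filter, the mean of probe sets or the replicate block, 0 with the second probe set, 8 with a term for sex and 6 with an adjusted p under 0.1. Lower at 13 weeks were 4 with median centring or an adjusted p under 0.1, 0 with the second probe set and 1 with only the 2 groups compared or an adjusted p under 0.01. For the change between ages, 1 was higher with a term for sex. Lower there were 2 with median centring, the mean of probe sets, a trended robust prior or an adjusted p under 0.1, and 0 with the second probe set. With array weights 7 were lower for the change between ages, against 1594 of all 8256 genes. For age in controls 1 was higher with no filter, a trended robust prior or an adjusted p under 0.1, 4 with array weights and 2 without both named arrays. For age in mutants 0 were higher with median centring or an adjusted p under 0.01. With no filter, the second probe set or the replicate block 1 was higher. Without both named arrays 4 were higher, against 1743 of all genes. With array weights 10 were higher and 2 lower for age in mutants, against 2182 and 2901 of all 8256 genes. Median centring set the members' medians to -0.14 at 13 weeks, -0.31 for the change between ages and -0.16 for age in mutants, where it moved the median of all genes from -0.10 to -0.25 and the share of higher among called genes from 49.3% to 35%. Leaving out single arrays gave 0 to 5 higher and 0 to 1 lower at 9 weeks, 1 to 7 higher and 1 to 4 lower at 13 weeks, 1 to 2 lower for the change between ages and 0 to 3 higher for age in mutants. Under the replicate block the calls for Rpsa (adjusted p = 0.0502) and Rps15 (adjusted p = 0.0854) at 9 weeks and Rplp0 with age in mutants (adjusted p = 0.0519) ended. Whether same-numbered mice were paired is not known. With array weights 33.3% of all genes passed at 9 weeks, against 5% without, and 16.4% passed when control mouse 3 at 13 weeks, the array of lowest weight, was left out. For age the shares of all genes with array weights were 7.24% in controls and 61.6% in mutants. The counts without both named arrays, and the method of weighting, were chosen after seeing the data. The cause of the other shifts was not tested. Members with a mean under 10, and most of all Rpl12, are limited by low signal.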
